A study of Sus scrofa with 9 samples.

Results

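L-Asp added during heat was compared with heat alone in pig (Sus scrofa) oocytes, across all genes with a mean of at least 10 CPM in either group. CPM, the unit used throughout, is a gene's count divided by the library total after trimmed mean of M values (TMM) scaling, times 1e+06. The rule gave 6678 genes out of 15012 tested and 23507 in the table, and all 6678 passed the filter on low counts. Of these, 6068 reached 10 CPM in both groups, 293 in the heat stress group alone and 317 in the L-Asp group alone. They comprised 6451 protein-coding genes, 200 long noncoding RNAs and 27 genes of other types. The larger of the 2 group means was 10.009 CPM for CALM3, 10.015 for SLC25A21 and 10.028 for FAM32A, the genes just inside the limit. It was 9.9987 CPM for TMEM219, 9.9963 for TOE1 and 9.9875 for PGBD1, just outside it.

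Both groups held wild-type oocytes, which entered culture inside a compact cumulus layer and were collected at MII, the metaphase of the second meiotic division, where the mature egg waits for fertilisation. In both, germinal vesicle oocytes, which are arrested in the first meiotic prophase, spent 24 h at 41.5 °C and the rest of maturation at 38.5 °C. The L-Asp group received L-Asp, the usual code for L-aspartic acid, in the medium during the heat. Concentrations of 0.5, 1.0 and 1.5 mmol/L appear in the labels, which do not say which of them was sequenced. There were 3 libraries in each group. The labels give 25 oocytes for a group and state neither how the libraries shared them nor whether they came from separate animals or cultures. The p-values below therefore measure only the spread between these libraries. A control group kept at 38.5 °C is given for some genes as 1 averaged library, with no error. For other genes it is left out, so the values given do not show how often L-Asp levels lay nearer to control.

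Aspartate takes part in the malate-aspartate shuttle, which moves reducing equivalents into mitochondria, and it supplies nitrogen and carbon for purines, pyrimidines and asparagine. The full-grown oocyte makes almost no new RNA. Its mRNA at MII is what remains of a store laid down during growth, part of which is deadenylated and degraded during maturation while another part gains a longer poly(A) tail and is translated. The libraries were primed with oligo(dT), so a difference in tail length and a difference in RNA amount cannot be told apart, nor can fewer cells of a type and less RNA per cell.

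Total counts were 46198885 to 53327419 in heat stress and 41693395 to 49008681 in L-Asp libraries. The 6 libraries did not separate by group over the 6678 genes. Heat stress libraries differed from each other by a median of 0.37 to 0.44 on the log2(CPM + 1) scale, and L-Asp libraries by 0.30 to 0.36. Heat stress replicate 3 and L-Asp replicate 2 were the closest pair of all, at 0.27, and heat stress replicate 1 and L-Asp replicate 3 the farthest, at 0.58. L-Asp replicate 1 lay within 0.36 of every other library, rounded to 2 decimals. The share of counts from the mitochondrial genome was 3.09%, 5.18% and 14.5% in heat stress replicates 1, 2 and 3, and 5.30%, 9.47% and 9.29% in the L-Asp replicates. The summed level of oocyte genes such as KPNA7 and ACCSL was 29493 to 36704 CPM in heat stress and 38953 to 49111 CPM with L-Asp. These 2 genes weigh heavily in the sum, with means of 3091 and 10621 CPM in heat stress and 5427 and 15774 CPM with L-Asp. Of the 25 oocyte genes with at least 10 CPM, 16 had a log2 fold change above 0 and 9 below, with a median of 0.07.

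**Figure D1:**
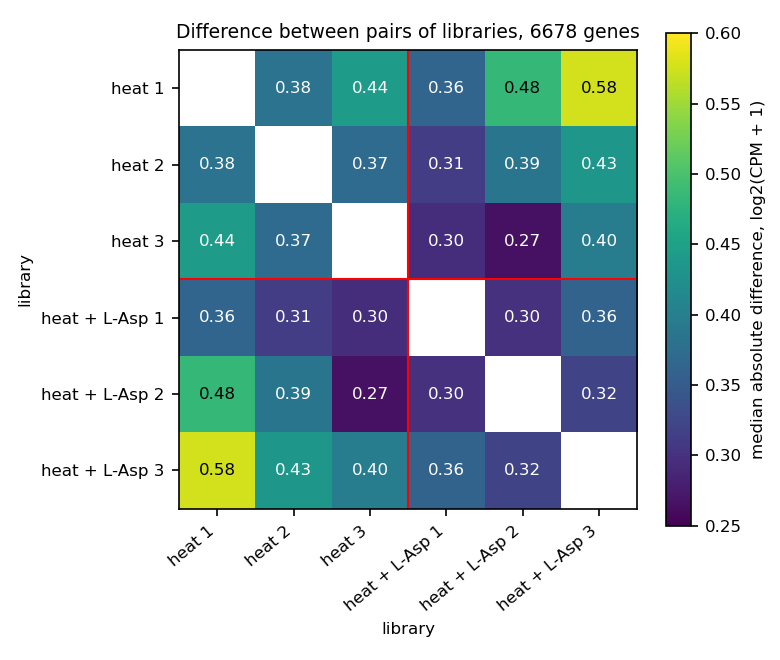
Median absolute difference in log2(CPM + 1) over 6678 genes for each pair of the 6 libraries, with red lines between the groups. Heat stress replicate 3 is nearer to L-Asp replicates 1 and 2 (0.30 and 0.27) than to the other heat stress libraries (0.44 and 0.37).

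No gene passed the quasi-likelihood F test of edgeR after Benjamini-Hochberg adjustment (0 of 15012 genes, 0%), so directions below are given as values and not as calls. At an unadjusted p under 0.05 edgeR found 655 of the 6678 genes (363 higher and 292 lower with L-Asp), against 991 of all tested genes (6.6%; 3.52% higher and 3.08% lower). DESeq2 called 22 of the 6678 (10 higher, 12 lower), against 0.595% of the genes it tested (0.26% higher and 0.335% lower). The 10 higher genes were KYAT1, MRPL43, LINGO2, SUSD6, AMMECR1, RNF145, NEURL3, CEP192, SLC25A44 and GNB1. The 12 lower ones were GSTA1, ENSSSCG00000060237, CSE1L, PAIP2, RPS3A, ENSSSCG00000002623, CNOT11, RPS23, KHDRBS1, ALG9, FAM162A and EFCAB5. As a description of how far a difference held, a gene was counted as without overlap when its lowest L-Asp library lay above its highest heat stress library, or the reverse. This was so for 927 of the 6678 genes, of which 497 were higher and 430 lower with L-Asp. The balance depended on the scaling, with 460 higher and 462 lower by relative log expression factors and 455 and 472 by upper quartile factors. Over all tested genes the share was 11.9% (6.31% higher, 5.54% lower), and over the 6678 genes it was 13.88% (7.44% higher, 6.44% lower). The shares over the 6678 genes are the ones to hold beside the counts of each list below. Fold changes were small. The median log2 fold change was -0.02, the median size 0.29, and 9 of 10 genes lay within 0.72. A difference of at least 2-fold was seen in 202 genes, and 111 of them had no overlap (61 higher, 50 lower).

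**Figure D2:**
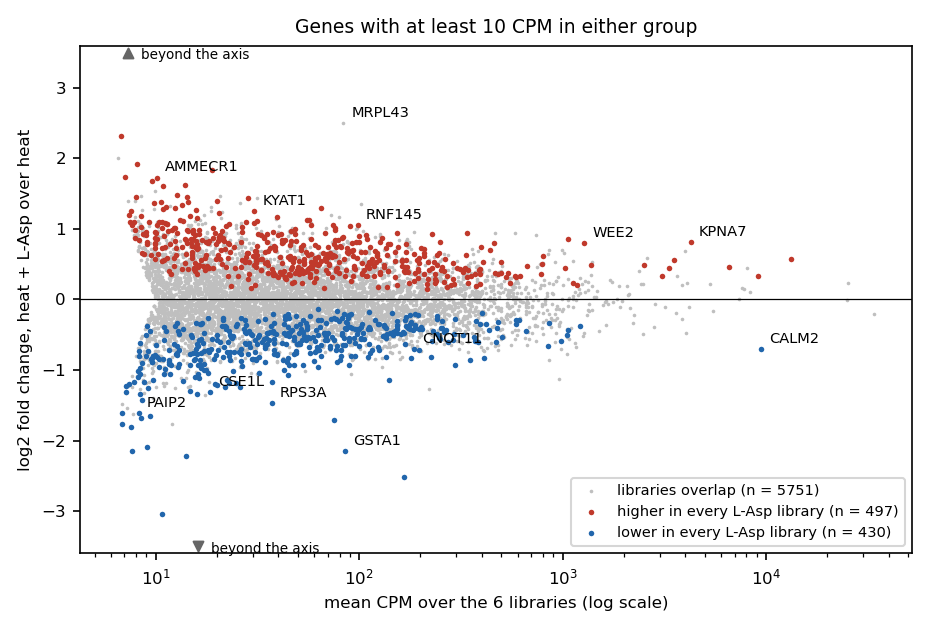
Log2 fold change of heat plus L-Asp over heat alone (edgeR) against mean CPM over the 6 libraries (log axis) for 6678 genes, with genes without overlap in colour. Most genes without overlap lie within 1 log2 unit of 0, and 2 genes beyond the axis, each present in only 1 heated library at more than 1 CPM, are drawn as triangles at its edge.

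Genes with and without overlap were also set against abundance and transcript length. Genes without overlap made up 11.82% of the genes with a mean of 10 to 30 CPM, 14.92% at 30 to 100, 14.21% at 100 to 300 and 11.68% at 300 to 1000. Above 1000 CPM there were 104 genes, with 14 higher and 4 lower without overlap (17.31%). The median length, derived from the deposited counts and FPKM, was 4737 bases for the 497 higher genes, 4828 for the 430 lower genes and 4884 for those that overlapped. In the table's coordinates, 33 of the 123 genes checked for the text share bases with a neighbour. The preparation does not mark strand, so reads of such pairs cannot be told apart. Among genes named below this applies to MDH2, IMPDH2, PPAT, TCP1, SYVN1, ND4, ATP6, COX3, ATG16L1, SQSTM1, KIF20A, SYCP3, TOP2B, PLK1, PKMYT1, DIS3, RPS3A, RPSA, MRPL43, MRPS22, PAIP2, MSH3, COPZ1, SLC25A44, RADIL, EFCAB5, NUP54, ZNF277, EDC3, CKS1B, DNAJC9 and SPAG16.

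The clearest difference was in the alpha-class glutathione transferases, which couple glutathione to reactive lipid products and foreign compounds. GSTA1 (ENSSSCG00000052947, chromosome 7, 46538032 to 46548670, minus strand; the sources used here give no build) measured 119, 122 and 176 CPM in heat stress replicates 1, 2 and 3 and 27.7, 43.6 and 22.6 CPM in L-Asp replicates 1, 2 and 3. The groups lay far apart, and the averaged control, at 15.8 CPM, was below all 6 heated libraries. edgeR gave a log2 fold change of -2.15 ± 0.295 (SE) and the smallest adjusted p among the 6678 genes, 0.125. DESeq2 gave an adjusted p of 2.75e-08, and over all 19 fits, alternatives included, the value ran from 2.75e-08 to 0.887, the highest without L-Asp replicate 3. For every other gene of the 6678 edgeR gave an adjusted p of 0.739 or more.

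The neighbouring gene had the same pattern. ENSSSCG00000002623, annotated in the table with glutathione transferase activity, lies 5143 bases from GSTA1 (chromosome 7, 46553813 to 46564515, minus strand). The neighbour measured 77.0, 94.5 and 172 CPM after heat and 33.0, 53.2 and 18.8 CPM with L-Asp, against 11.3 CPM in control. It had a log2 fold change of -1.71 ± 0.40 (SE), an adjusted p of 0.739 in edgeR and one of 0.0171 in DESeq2. A further transferase gene, ENSSSCG00000058308 (chromosome 7, 46570950 to 46588218), lay below the 10 CPM limit at 5.33, 8.24 and 10.0 CPM after heat and 1.80, 4.37 and 1.59 CPM with L-Asp. These 2 genes have no symbol and were chosen after their values were seen. Near-identical family members can share reads, so the 3 patterns may not be separate measurements.

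The pattern did not extend to the other genes at this locus. GSTA4, the transferase for the lipid aldehyde 4-hydroxynonenal, measured 11.5, 18.7 and 44.7 CPM after heat and 21.1, 29.3 and 18.6 CPM with L-Asp, so its groups overlapped. TMEM14A, on the other side of GSTA1, measured 183, 154 and 169 CPM after heat and 172, 193 and 179 CPM with L-Asp. Both were likewise looked up after the GSTA1 values were known.

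GSTA1 and GSTA4 belong to a list of 24 enzymes of glutathione and antioxidant defence. Of these 24, GSTA1 included, 20 had a fold change below 0. Without overlap 4 were lower (16.7%) and 2 higher (8.33%), against 6.44% and 7.44% of the 6678 genes. The median was -0.29, against -0.02 over the 6678 genes. It was -0.10 without heat stress replicate 3 and -0.16 without L-Asp replicate 3. MGST2, a microsomal glutathione transferase, was lower in every L-Asp library, at 40.01, 46.9 and 41.1 CPM after heat and 25.6, 28.4 and 28.5 CPM with L-Asp. PGD, the pentose phosphate enzyme that makes NADPH, was higher, at 31.5, 39.4 and 52.3 CPM after heat and 55.7, 68.3 and 98.99 CPM with L-Asp. Whether any of this RNA came from cumulus cells was not tested. Values for their markers follow with the ribosomal genes.

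Genes that move or use aspartate went in both directions. Among 6 transporters of acidic and neutral amino acids, 1 was higher and 1 lower without overlap (16.7% each, against 7.44% and 6.44% of the 6678 genes). SLC1A4, a neutral amino acid exchanger, measured 13.8, 9.45 and 15.4 CPM after heat and 25.5, 18.2 and 24.1 CPM with L-Asp, which put every L-Asp library above every heat stress library. Its relative SLC1A5, the main glutamine exchanger, measured 315, 499 and 726 CPM after heat and 628, 810 and 1464 CPM with L-Asp. Heat stress replicate 3 lay above L-Asp replicate 1 for that gene, so the groups overlapped. SLC38A2, a sodium-coupled neutral amino acid transporter, was lower in every L-Asp library, at 11.95, 13.8 and 22.7 CPM after heat and 7.28, 11.8 and 8.81 CPM with L-Asp.

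Both mitochondrial enzymes of the malate-aspartate shuttle were higher in every L-Asp library. GOT2, the aspartate aminotransferase of the mitochondrial matrix, measured 59.3, 41.9 and 54.9 CPM after heat and 67.1, 84.4 and 66.9 CPM with L-Asp. MDH2, the matrix malate dehydrogenase, measured 24.3, 22.6 and 26.4 CPM after heat and 36.6, 31.3 and 43.8 CPM with L-Asp, against 47.3 CPM in control. The cytosolic enzyme MDH1 overlapped, at 5.17, 14.3 and 18.8 CPM after heat and 6.39, 8.81 and 5.00 CPM with L-Asp. The log2 fold changes were 0.48 ± 0.24 (SE) for GOT2 and 0.61 ± 0.26 for MDH2, and neither passed edgeR's adjusted test.

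Of 13 enzymes that take aspartate or its products further, 11 had a fold change below 0. Without overlap 1 was lower (7.69%, against 6.44% of the 6678 genes) and 0 higher. That gene was ASRGL1, an asparaginase, which held 8.87, 20.2 and 6.19 CPM after heat and 3.67, 3.03 and 3.34 CPM with L-Asp. Heat stress replicate 2 gave much of the size of this difference. IMPDH2, which commits purines to guanine nucleotides, measured 54.9, 50.0 and 66.3 CPM after heat and 91.7, 64.7 and 106 CPM with L-Asp, and L-Asp replicate 2 fell inside the heat stress range. PPAT, the entry enzyme of purine synthesis, measured 68.2, 57.0 and 25.6 CPM after heat and 27.8, 35.6 and 26.8 CPM with L-Asp, with heat stress replicate 3 below all L-Asp libraries.

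Chaperone genes were on the lower side in number, with few that separated the groups. Of 32 heat shock proteins and cochaperones, 22 lay below 0. Without overlap 2 were lower (6.25%) and 3 higher (9.38%), against 6.44% and 7.44% of the 6678 genes. The median of the list was -0.24. Without heat stress replicate 1 it was -0.05, and without L-Asp replicate 2 it was -0.07. FKBP5, a cochaperone of HSP90, measured 63.5, 53.0 and 66.3 CPM after heat and 41.3, 34.1 and 43.9 CPM with L-Asp, lower in every L-Asp library. HSPH1, which recharges HSP70 with nucleotide, measured 379, 273 and 212 CPM after heat and 237, 178 and 149 CPM with L-Asp, with overlap through heat stress replicate 3 and L-Asp replicate 1. AHSA1, the activator of the HSP90 ATPase, went the other way, at 477, 550 and 659 CPM after heat and 695, 716 and 929 CPM with L-Asp. In the chaperonin that folds actin and tubulin, TCP1 was lower in every L-Asp library (140, 118 and 123 CPM after heat; 107, 90.1 and 92.0 CPM with L-Asp). Its partner CCT2 was not (546, 330 and 407 CPM after heat; 335, 345 and 285 CPM with L-Asp).

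The endoplasmic reticulum is where secreted proteins such as those of the zona pellucida fold. Of 20 of its genes, 4 were higher (20%, against 7.44% of the 6678 genes) and 0 lower without overlap, and the median was -0.01. HYOU1, a chaperone of that compartment, measured 37.3, 53.1 and 87.1 CPM after heat and 106, 98.8 and 161 CPM with L-Asp, against 118 CPM in control. SYVN1, the ubiquitin ligase that clears misfolded proteins from the compartment, measured 52.9, 50.5 and 56.0 CPM after heat and 63.2, 76.3 and 92.0 CPM with L-Asp. PPP1R15A, which ends the translational arrest of the stress response, overlapped, at 2.25, 6.70 and 7.20 CPM after heat and 6.0002, 14.9 and 12.9 CPM with L-Asp. Further along the secretory route, COPZ1, a subunit of the coat of Golgi vesicles, was higher in every L-Asp library (52.4, 68.6 and 76.4 CPM after heat; 78.5, 106 and 142 CPM with L-Asp). SEC61G, a subunit of the translocation channel, was lower (37.9, 39.3 and 26.7 CPM after heat; 23.7, 19.1 and 24.8 CPM with L-Asp). Of 29 genes of secretory traffic 22 lay above 0, with 2 higher and 2 lower without overlap (6.9% each, against 7.44% and 6.44% of the 6678 genes). Their median of 0.18 was 0.10 without heat stress replicate 1 or 2.

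Genes of the cytosolic ribosome stood mainly on the lower side. Of 57 genes for proteins of the cytosolic ribosome, 47 had a fold change below 0, 14 were lower and 0 higher without overlap (24.56% against 6.44% of the 6678 genes), and the median was -0.30. The median was between -0.44 and -0.19 with any library left out, nearest to 0 without heat stress replicate 2. RPS3A measured 54.9, 67.8 and 40.6 CPM after heat and 25.8, 19.9 and 13.4 CPM with L-Asp. RPS23, at the decoding centre of the small subunit, measured 34.8, 42.9 and 25.3 CPM after heat and 16.2, 15.3 and 13.8 CPM with L-Asp, against 8.93 CPM in control. RPSA measured 66.8, 93.5 and 77.1 CPM after heat and 43.6, 52.2 and 48.6 CPM with L-Asp. All 3 separated the groups in full. Over the whole list, heat stress replicate 2 was the highest library (5982 CPM summed over its genes), heat stress replicate 1 (4613 CPM) was below all 3 L-Asp libraries (4650 to 4934 CPM), and heat stress replicate 3 held 5269 CPM. Pseudogene copies of ribosomal protein genes are near-identical to them, so reads may be shared.

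Markers of the somatic cells around the oocyte, which are cumulus and other granulosa cells, are given beside these genes. Of 28 markers found in the table, 19 were tested and 10 to 16 reached 1 CPM in a library. Without overlap 3 were lower and 0 higher, against 5.54% and 6.31% of all tested genes. They included NR5A2 (0.486, 0.818 and 0.1945 CPM after heat, 0 in each L-Asp library). GATA6 was low as well, at 1.26, 1.52 and 1.595 CPM after heat and 0.912, 0.768 and 1.11 CPM with L-Asp. Of the 6 markers with at least 10 CPM, 4 lay above 0. Without overlap 1 of the 6 was lower (16.7%) and 0 higher, against 6.44% and 7.44% of the 6678 genes. Over all 28 markers the summed level was 1735, 1442 and 1368 CPM after heat and 1381, 1369 and 1342 CPM with L-Asp, mostly RGS2 and VCAN. Without those 2 genes it was 229, 251 and 335 CPM after heat and 276, 363 and 337 CPM with L-Asp. Most of that remainder was KITLG, GATA4 and FST, which held 102, 85.2 and 49.3 CPM in control. The remainder therefore mainly follows genes that were also present in control. SERPINE2, a protease inhibitor of these cells, was lower in every L-Asp library, at 20.9, 20.7 and 22.6 CPM after heat and 14.3, 13.8 and 10.8 CPM with L-Asp. GATA4, a transcription factor of granulosa cells, overlapped, at 42.9, 48.5 and 120 CPM after heat and 103, 143 and 168 CPM with L-Asp. The steroid enzyme CYP11A1 measured 5.98, 6.37 and 15.1 CPM after heat and 1.32, 7.80 and 0.687 CPM with L-Asp, against 0.039 CPM in control. GJA1, also on the list, measured 6.97, 7.15 and 13.4 CPM after heat and 5.03, 1.60 and 7.03 CPM with L-Asp, against 0.800 CPM in control. The heated groups overlapped in both. The cumulus matrix gene PTX3 and IGFBP2 were at 0 in all 6 libraries, and the hormone receptor FSHR in 4 of them. The part of such cells in the ribosomal difference was not tested. Theca, blood and endothelial markers summed to 9.92 to 12.4, 3.69 to 11.4 and 23.8 to 42.7 CPM.

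Among 30 translation factors 18 lay below 0. Without overlap 6 were lower (20%) and 1 higher (3.33%), against 6.44% and 7.44% of the 6678 genes. Their median of -0.08 became -0.01 without heat stress replicate 3. Of 14 aminoacyl-tRNA synthetases, 7 lay above and 7 below 0 (median -0.03). EIF3E and EIF3L are subunits of the factor that brings mRNA to the small ribosomal subunit. EIF3E measured 657, 538 and 581 CPM after heat and 432, 432 and 370 CPM with L-Asp, against 506 CPM in control. EIF3L measured 35.8, 52.4 and 41.8 CPM after heat and 23.6, 26.6 and 13.3 CPM with L-Asp. PAIP2, which displaces the poly(A)-binding protein and holds translation down, was also lower, at 12.7, 13.1 and 11.4 CPM after heat and 3.37, 4.55 and 4.29 CPM with L-Asp. Its log2 fold change of -1.61 ± 0.39 (SE) did not pass edgeR's adjusted test and was called by DESeq2.

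The control of stored mRNA had members on either side, with a median of -0.003. Of 48 genes, 4 were higher (8.33%) and 3 lower (6.25%) without overlap, against 7.44% and 6.44% of the 6678 genes. CNOT11, a subunit of the CCR4-NOT complex that removes poly(A) tails, was lower in every L-Asp library, at 235, 246 and 208 CPM after heat and 142, 150 and 131 CPM with L-Asp. Its log2 fold change was -0.70 ± 0.19 (SE), and control held 111 CPM. PAN3, which belongs to the other deadenylase complex, was higher, at 192, 150 and 228 CPM after heat and 289, 293 and 300 CPM with L-Asp. Control held 188 CPM of PAN3. DIS3, a nuclease of the exosome, was lower, at 112, 83.8 and 88.6 CPM after heat and 67.4, 57.3 and 54.6 CPM with L-Asp. EDC3, which helps to remove the cap and was not on this list, was lower, at 68.8, 63.3 and 45.2 CPM after heat and 36.9, 26.5 and 29.4 CPM with L-Asp. KHDRBS1, an RNA-binding regulator from the list of splicing genes, measured 99.4, 104 and 147 CPM after heat and 59.6, 65.6 and 58.8 CPM with L-Asp. Control lay between the groups for KHDRBS1, at 79.1 CPM.

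Regulators of the meiotic cell cycle leaned to the higher side. Among 34 genes that hold or release meiotic arrest, 22 had a fold change above 0. Without overlap 2 were higher (5.88%, below the 7.44% of the 6678 genes) and 0 lower. The median of the list was 0.19, which stayed between 0.11 (without heat stress replicate 1) and 0.24 with any library left out. WEE2, the oocyte kinase that holds cyclin-dependent kinase 1 inactive, measured 905, 832 and 1059 CPM after heat and 1274, 1567 and 2039 CPM with L-Asp. PKMYT1, a second inhibitory kinase, measured 2.01, 4.05 and 6.77 CPM after heat and 8.21, 9.46 and 17.5 CPM with L-Asp. PLK1, which drives entry into division, measured 30.6, 41.4 and 69.9 CPM after heat and 58.9, 93.2 and 120 CPM with L-Asp, and overlapped through heat stress replicate 3. In these 3 genes L-Asp replicate 3 was the highest library, and heat stress replicate 1 the lowest in PKMYT1 and PLK1.

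Spindle genes went both ways. CEP192, the scaffold that gathers spindle kinases at microtubule centres, was higher in every L-Asp library, at 94.3, 91.6 and 125 CPM after heat and 173, 178 and 187 CPM with L-Asp. Its log2 fold change was 0.79 ± 0.21 (SE). The motor KIF20A, which acts late in division, measured 69.8, 47.5 and 93.0 CPM after heat and 112, 131 and 128 CPM with L-Asp. KIFC1, a minus-end motor that bundles microtubules, measured 4.58, 10.4 and 8.89 CPM after heat and 15.9, 11.4 and 34.8 CPM with L-Asp. KIF11, the motor that pushes the spindle poles apart, was lower, at 41.5, 42.4 and 31.4 CPM after heat and 24.5, 21.97 and 22.2 CPM with L-Asp.

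At the kinetochore, CDCA8, a subunit of the complex around Aurora kinase B, was higher in every L-Asp library (250, 244 and 278 CPM after heat; 321, 333 and 397 CPM with L-Asp). MAD2L1, which delays anaphase until chromosomes attach, was lower (476, 459 and 457 CPM after heat; 368, 317 and 229 CPM with L-Asp). SGO2, which guards centromeric cohesin through the first division, was lower as well (341, 291 and 254 CPM after heat; 250, 193 and 160 CPM with L-Asp). Control held 157 CPM of CDCA8, 510 CPM of MAD2L1 and 238 CPM of SGO2. None of 23 genes of cohesin and meiotic chromosomes separated the groups, although 20 lay below 0 with a median of -0.21. Without heat stress replicate 1 that median was -0.03. SYCP3, of the synaptonemal complex, measured 1111, 760 and 585 CPM after heat and 630, 569 and 371 CPM with L-Asp, and TOP2B, a topoisomerase, 1655, 1172 and 1010 CPM after heat and 1119, 862 and 621 CPM with L-Asp. Heat stress replicate 1 was the highest library in both. In the actin cortex, ARPC5 was lower (29.9, 17.8 and 25.4 CPM after heat; 12.9, 12.6 and 10.1 CPM with L-Asp) and ARPC2 higher (139, 161 and 201 CPM after heat; 221, 229 and 213 CPM with L-Asp), although both belong to the complex that branches actin. TMSB10, which binds free actin, measured 65.5, 174 and 127 CPM after heat and 59.1, 68.1 and 49.8 CPM with L-Asp, against 17.4 CPM in control. Its groups overlapped through heat stress replicate 1 and L-Asp replicate 2. The log2 fold change was -1.05, and -0.71 without heat stress replicate 2.

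Of 23 genes of nuclear import and export, 15 lay above 0. Without overlap 1 was higher (4.35%) and 3 were lower (13%), against 7.44% and 6.44% of the 6678 genes. The median of the list was 0.07, with a range of -0.03 (without heat stress replicate 2) to 0.14 (without heat stress replicate 3) when a library was left out. KPNA7, the importin of oocytes and early embryos, was higher in every L-Asp library, at 2326, 2994 and 3955 CPM after heat and 4465, 4773 and 7042 CPM with L-Asp. CSE1L, which returns importin alpha to the cytoplasm, was lower, at 26.2, 24.7 and 28.4 CPM after heat and 11.6, 8.83 and 11.4 CPM with L-Asp. The log2 fold change of CSE1L was -1.32 ± 0.30 (SE), and control held 10.7 CPM. NUP54, of the central channel of the nuclear pore and not on this list, was lower too, at 61.5, 44.6 and 63.8 CPM after heat and 25.3, 22.7 and 36.9 CPM with L-Asp. TNPO2, a transportin, overlapped, at 9.14, 9.74 and 12.5 CPM after heat and 20.1, 12.02 and 39.6 CPM with L-Asp.

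Chromatin genes held 6 of 28 members higher (21.4%) and 1 lower (3.57%) without overlap, against 7.44% and 6.44% of the 6678 genes. The median of the chromatin genes was 0.12, and 0.03 without L-Asp replicate 1. TET3, which oxidises 5-methylcytosine in the zygote, measured 52.4, 50.0 and 62.1 CPM after heat and 79.6, 98.2 and 107 CPM with L-Asp. UHRF1, which guides maintenance of DNA methylation, measured 17.2, 16.4 and 20.5 CPM after heat and 30.1, 25.8 and 49.4 CPM with L-Asp. NAA40, which acetylates the amino end of histones, measured 63.2, 70.7 and 91.8 CPM after heat and 122, 116 and 187 CPM with L-Asp. The deacetylase HDAC2 was lower, at 78.1, 47.4 and 45.5 CPM after heat and 42.5, 23.3 and 26.7 CPM with L-Asp. In DNA repair 22 of 33 genes lay below 0, with a median of -0.22 that was -0.08 without heat stress replicate 1. MSH3 of mismatch repair measured 302, 207 and 182 CPM after heat and 160, 137 and 92.6 CPM with L-Asp.

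The genes encoded in mitochondrial DNA varied more between libraries than between groups. Of 13, 10 lay above 0 and 0 separated the groups, with a median of 0.24. ATP6, a subunit of ATP synthase, measured 1876, 4028 and 14516 CPM after heat and 5495, 10430 and 11909 CPM with L-Asp. ND4, of complex I, measured 1152, 1707 and 6283 CPM after heat and 3031, 5188 and 6505 CPM with L-Asp, and ND3 155, 182 and 545 CPM after heat and 311, 515 and 588 CPM with L-Asp. In these 3 genes heat stress replicates 1 and 2 were below the L-Asp libraries and heat stress replicate 3 was not. The subunits of cytochrome c oxidase differed from this: COX2 measured 1794, 3178 and 7974 CPM after heat and 2611, 5080 and 4366 CPM with L-Asp, with heat stress replicate 2 above L-Asp replicate 1. The same held in COX1 and COX3, and COX1 and COX2 had fold changes below 0 (-0.20 and -0.10). The median of the list ran from -0.13 to 1.49 depending on which library was left out.

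Of 52 nuclear genes of the respiratory chain, 1 was higher (1.92%) and 3 lower (5.77%) without overlap, against 7.44% and 6.44% of the 6678 genes. The median was -0.14, and -0.01 without L-Asp replicate 1. COX7A2, of cytochrome c oxidase, was lower, at 51.6, 47.3 and 60.0 CPM after heat and 33.9, 41.99 and 35.5 CPM with L-Asp. UQCRB, of complex III, overlapped, at 168, 170 and 114 CPM after heat and 107, 117 and 89.2 CPM with L-Asp. Among genes that shape mitochondria, the inner-membrane protease OMA1 was higher in every L-Asp library (79.8, 83.3 and 110 CPM after heat; 119, 123 and 137 CPM with L-Asp), and so was HAX1, which restrains apoptosis (201, 262 and 250 CPM after heat; 279, 345 and 399 CPM with L-Asp). Control held 191 CPM of OMA1 and 120 CPM of HAX1. Of 44 genes of the mitochondrial ribosome, 3 were higher (6.82%) and 4 lower (9.09%) without overlap, against 7.44% and 6.44% of the 6678 genes (median -0.09). Among the lower ones, MRPL13 measured 116, 89.8 and 97.9 CPM after heat and 73.3, 67.3 and 53.4 CPM with L-Asp, and MRPS22 57.5, 46.6 and 67.4 CPM after heat and 39.95, 32.9 and 23.4 CPM with L-Asp. CDK5RAP1, which modifies mitochondrial tRNAs, was lower too, at 26.5, 13.4 and 23.1 CPM after heat and 6.53, 7.88 and 11.2 CPM with L-Asp. SLC25A44, the carrier that brings branched-chain amino acids into mitochondria, was higher, at 50.6, 43.7 and 50.4 CPM after heat and 72.0, 91.8 and 136 CPM with L-Asp.

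Glycolytic genes did not separate the groups (0 of 10 without overlap). PKM, LDHA and GPI were the 3 of smallest p among them, and heat stress replicate 1 was the lowest heat stress library in each, at 9.14, 37.7 and 7.62 CPM. In lipid metabolism, SCD, which desaturates fatty acids, was higher in every L-Asp library, at 13.3, 18.4 and 11.6 CPM after heat and 22.9, 31.8 and 26.6 CPM with L-Asp. ACSL4, which activates polyunsaturated fatty acids, was lower, at 49.4, 58 and 74.0 CPM after heat and 39.7, 28.0 and 18.3 CPM with L-Asp. CPT2, which carries fatty acids into mitochondrial oxidation, overlapped, at 28.7, 15.5 and 10.8 CPM after heat and 28.0, 37.9 and 36.0 CPM with L-Asp. ORMDL3, a brake on sphingolipid synthesis, measured 25.3, 41.4 and 27.4 CPM after heat and 56.7, 53.7 and 73.9 CPM with L-Asp.

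Of 11 apoptosis genes, 3 were lower (27.3%, against 6.44% of the 6678 genes) and 0 higher without overlap. The median of -0.08 was above 0 without heat stress replicate 1, heat stress replicate 3 or L-Asp replicate 3 (up to 0.09). AIFM1, a mitochondrial flavoprotein that can take part in cell death, measured 21.7, 21.6 and 14.4 CPM after heat and 10.8, 9.13 and 10.5 CPM with L-Asp. XIAP, which inhibits caspases, was lower as well, at 68.5, 42.7 and 58.8 CPM after heat and 39.9, 35.6 and 41.7 CPM with L-Asp. Of 29 proteasome genes, 4 were lower (13.8%) and 2 higher (6.9%) without overlap, against 6.44% and 7.44% of the 6678 genes. PSMA4 measured 452, 357 and 333 CPM after heat and 276, 306 and 226 CPM with L-Asp. PSMD14, the deubiquitinase of the proteasome lid, measured 59.3, 52.3 and 69.1 CPM after heat and 46.3, 38.9 and 31.4 CPM with L-Asp.

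In autophagy, 3 of 25 genes were higher (12%) and 1 lower (4%) without overlap, against 7.44% and 6.44% of the 6678 genes. The median was -0.10, and 0.04 without L-Asp replicate 2. ATG16L1, which places the conjugation machinery on the forming membrane, measured 56.7, 88.6 and 70.3 CPM after heat and 97.5, 132 and 151 CPM with L-Asp. The cargo receptor SQSTM1 measured 269, 303 and 305 CPM after heat and 353, 357 and 463 CPM with L-Asp. WIPI2, which recruits ATG16L1, measured 133, 133 and 164 CPM after heat and 175, 176 and 217 CPM with L-Asp. All 3 were higher in every L-Asp library, and L-Asp replicate 3 was the highest in each.

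Several genes of smallest p belonged to none of these groups. KYAT1, an aminotransferase that makes kynurenic acid (ENSSSCG00000005663, chromosome 1, 269172628 to 269209478), had the smallest p on the higher side. It measured 18.2, 17.3 and 18.4 CPM after heat and 35.2, 40.2 and 53.0 CPM with L-Asp, a log2 fold change of 1.25 ± 0.27 (SE), against 38.4 CPM in control. RNF145, a ubiquitin ligase of the endoplasmic reticulum that answers to sterols, measured 55.2, 49.5 and 86.9 CPM after heat and 130, 124 and 144 CPM with L-Asp. LINGO2, a membrane protein with leucine-rich repeats, measured 4.50, 5.77 and 10.1 CPM after heat and 22.2, 20.3 and 20.2 CPM with L-Asp. These 3 genes had their lowest L-Asp library well above the highest heat stress library.

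Signalling genes were among the others. GNB1, a beta subunit of G proteins, measured 26.1, 44.2 and 42.3 CPM after heat and 69.6, 71.4 and 93.8 CPM with L-Asp. GNG11, a gamma subunit, was lower, at 16.5, 33.3 and 18.6 CPM after heat and 9.91, 10.9 and 6.04 CPM with L-Asp. PRKAB2, a regulatory subunit of the energy sensor AMPK, was lower as well, at 16.7, 11.8 and 9.08 CPM after heat and 4.01, 5.98 and 4.03 CPM with L-Asp. ALG9, a mannosyltransferase of N-glycan synthesis, measured 10.0, 13.0 and 14.3 CPM after heat and 1.62, 5.01 and 1.78 CPM with L-Asp, a log2 fold change of -2.15 ± 0.54 (SE). FAM162A, a mitochondrial protein induced by hypoxia, measured 29.0, 46.7 and 33.9 CPM after heat and 14.0, 19.9 and 12.4 CPM with L-Asp. SLC35F2, a solute carrier, was higher, at 6.58, 9.96 and 16.6 CPM after heat and 31.2, 24.7 and 31.5 CPM with L-Asp.

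The remaining genes of this kind are given by their levels. SUSD6, a membrane protein, measured 41.4, 52.2 and 57.5 CPM after heat and 87.4, 90.4 and 126 CPM with L-Asp. DLG5, a scaffold of cell polarity, measured 61.9, 72.7 and 99.5 CPM after heat and 114, 137 and 172 CPM with L-Asp, against 184 CPM in control. AMMECR1 measured 2.82, 5.47 and 5.82 CPM after heat and 15.4, 11.4 and 19.9 CPM with L-Asp, and its control level of 3.39 CPM was on the heat stress side. COLGALT1, a glycosyltransferase of collagen, KLHL42, an adaptor of ubiquitin ligases, and RADIL were higher without overlap too, at group means of 28.6 ± 2.05, 17.4 ± 3.49 and 69.4 ± 9.92 CPM after heat and 54.2 ± 11.5, 35.4 ± 4.91 and 130 ± 41.3 CPM with L-Asp (SD, 3 libraries each). CAPN10, KIAA2013 and PSD3 had their highest level in L-Asp replicate 3, at 48.5, 16.8 and 21.9 CPM, against 12.3, 4.15 and 4.70 CPM in the highest heat stress library. On the lower side, EFCAB5, ZNF277 and CYB5R4, a reductase of the endoplasmic reticulum, had group means of 31.8 ± 5.38, 69.5 ± 19.1 and 14.2 ± 6.17 CPM after heat and 14.1 ± 4.10, 36.3 ± 3.36 and 4.53 ± 1.73 CPM with L-Asp, without overlap.

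**Figure D3:**
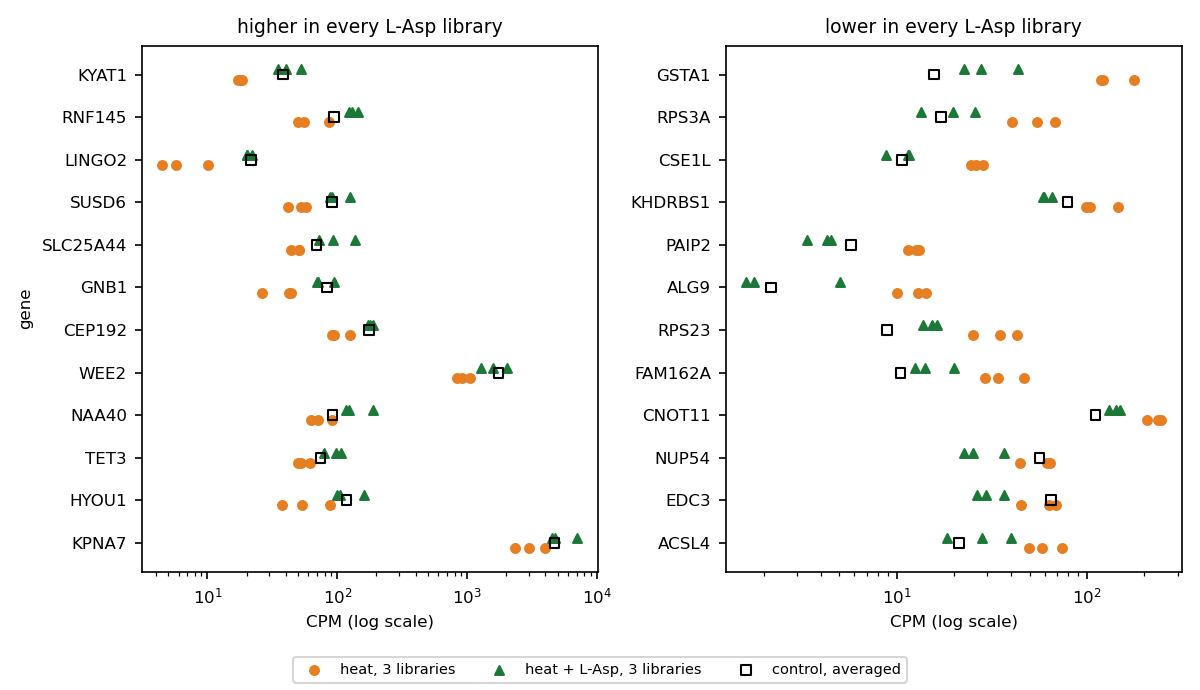
CPM (log axis) of 12 genes that were higher and 12 that were lower in every L-Asp library, with a symbol for each of the 3 heat libraries, the 3 heat plus L-Asp libraries and the averaged control. The symbols of the heated groups do not overlap in any of these genes, which was the condition for showing them, and the averaged control of GSTA1 (15.8 CPM) lies below its 6 heated libraries.

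Of the most abundant mRNAs per length, ACCSL, an oocyte gene related to enzymes of aminocyclopropane synthesis, was higher in every L-Asp library, at 8356, 10044 and 13463 CPM after heat and 13945, 14175 and 19202 CPM with L-Asp. CALM2, a calmodulin gene, was lower, at 16295, 10613 and 8082 CPM after heat and 7855, 7871 and 5760 CPM with L-Asp. For both, heat stress replicate 3 came close to the nearest L-Asp library. CKS1B, a partner of cyclin-dependent kinases, measured 6848, 5058 and 5444 CPM after heat and 5035, 5642 and 4879 CPM with L-Asp, and DPPA5, an RNA-binding protein of germ cells, 4922, 4142 and 3597 CPM after heat and 3980, 3663 and 2839 CPM with L-Asp. The polyubiquitin gene UBB, made of near-identical repeats, measured 4265, 5234 and 5211 CPM after heat and 6547, 5151 and 5472 CPM with L-Asp, against 16331 CPM in control. The heated groups overlapped in these last 3 genes.

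Noncoding RNAs are described with the same rule. Of 200 long noncoding RNAs, 32 had no overlap (16.0%, against 13.88% of the 6678 genes), 15 of them higher and 17 lower. ENSSSCG00000060237, on chromosome 7, was called lower by DESeq2, at 20.3, 26.4 and 10.7 CPM after heat and 2.35, 3.62 and 0.995 CPM with L-Asp, against 0.390 CPM in control. ENSSSCG00000048856, on chromosome 2, was among the largest in level, at 409, 195 and 243 CPM after heat and 90.8, 10.5 and 47.0 CPM with L-Asp. Both lack a symbol and were chosen after their values were seen.

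**Figure D4:**
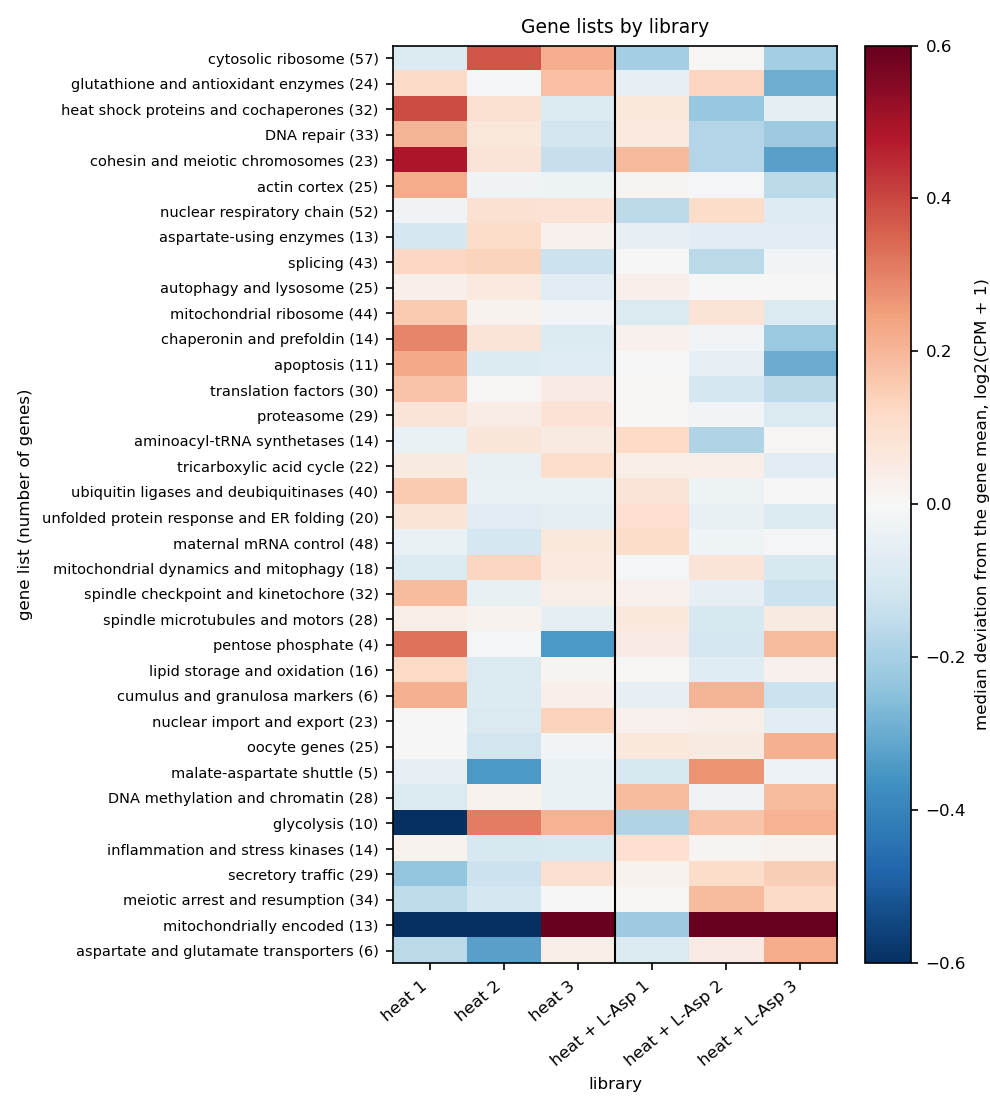
Median deviation of the genes of 36 lists from each gene's mean over the 6 libraries (log2(CPM + 1), colours end at 0.6), with lists in order of their median log2 fold change and the number of genes in brackets. The cytosolic ribosome list is highest in heat stress replicates 2 and 3, and the mitochondrially encoded genes are low in heat stress replicates 1 and 2 and L-Asp replicate 1.

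How far differences held depended on the library. Counting L-Asp libraries above the highest heat stress library, 3 did so in 497 genes, 2 in 987, 1 in 1466 and none in 3728. Below the lowest heat stress library the numbers were 430, 1079, 1503 and 3666. The fold change kept its direction with each library left out in turn for 4292 of the 6678 genes (64.27%). Leaving out heat stress replicate 1 turned the direction of 927 genes, more than any other library, and leaving out L-Asp replicate 1 turned that of 510, fewer than any other. By number of genes, heat stress replicate 3 was most often the heat stress library nearest to the L-Asp group (279 of 497 higher and 197 of 430 lower genes), and L-Asp replicate 1 the L-Asp library nearest to the heat stress group (268 and 225).

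Without heat stress replicate 3 the genes with no overlap made up 35.29% of the 6678, and without L-Asp replicate 1 31.55%, against 18.13% without L-Asp replicate 3 and 20.99% without heat stress replicate 1. Fewer libraries overlap less by construction, and over all tested genes the shares were 27.94%, 25.14%, 17.75% and 19.95%. At an unadjusted p under 0.05 edgeR found 655 genes higher and 523 lower of the 6678 without heat stress replicate 3, and 83 higher and 104 lower without L-Asp replicate 3.

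**Figure D5:**
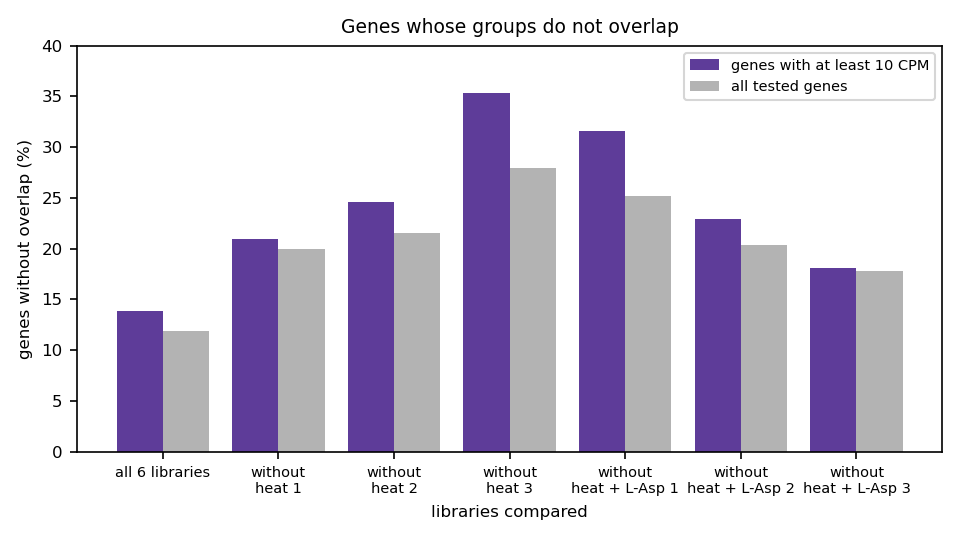
Share of genes whose groups do not overlap (in %), with all 6 libraries and with each left out in turn, for the 6678 genes with at least 10 CPM and for all tested genes. The bars are tallest without heat stress replicate 3 (35.29% and 27.94%) and without L-Asp replicate 1 (31.55% and 25.14%).

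Some genes varied widely between libraries of a single group, and some of these had a near all-or-nothing level. A 5-fold range within a group was seen in 101 genes for heat stress and in 53 for L-Asp, with 14 in both. Such a range is not all-or-nothing by itself, and abundant mitochondrially encoded genes such as ATP6 and ND4 had it in heat stress. Heat stress replicate 3 was the highest of its group in 59 of the 101, and heat stress replicate 1 the lowest in 50. MRPL43, of the mitochondrial ribosome, measured 25.9, 22.9 and 26.3 CPM after heat and 187, 25.7 and 212 CPM with L-Asp, against 248 CPM in control. L-Asp replicate 2 was at the heat stress level, and without it the gene passed edgeR's test (adjusted p = 0.00434). With all 6 libraries edgeR gave an adjusted p of 0.739 and DESeq2 one of 0.00503. The gene overlaps TWNK on the opposite strand, which measured 24.1, 32.1 and 25.4 CPM after heat and 31.0, 38.5 and 27.1 CPM with L-Asp.

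In MTPN it was heat stress replicate 3 that stood at the L-Asp level (20.9, 11.7 and 141 CPM after heat; 154, 125 and 163 CPM with L-Asp), and without it edgeR gave an adjusted p of 0.0178. ZSWIM7 was alike (0, 0 and 20.3 CPM after heat; 17.3, 17.95 and 15.4 CPM with L-Asp; adjusted p = 0.00545 without heat stress replicate 3, edgeR). GOLPH3L had the same form with heat stress replicate 1 as the exception (7.84, 0 and 0 CPM after heat; 6.83, 9.66 and 14.9 CPM with L-Asp). MTPN, ZSWIM7 and GOLPH3L were named after their values were seen. A count of 0 in a library allows up to 0.0584 to 0.0711 CPM, the level of 3 counts, for counting error only. Over the 19 fits of MRPL43 and GOLPH3L the adjusted p ran from 0.00434 and 0.0499 up to 1, and over the 18 of MTPN and ZSWIM7 from 0.0178 and 0.00545 up to 1.

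In other genes most of the difference rested on 1 library. DNAJC9, a histone cochaperone, measured 922, 441 and 347 CPM after heat and 455, 310 and 315 CPM with L-Asp. CENPK, of the inner kinetochore, measured 257, 104 and 63.4 CPM after heat and 101, 75.3 and 59.3 CPM with L-Asp. SPAG16, ZNF570 and ZCCHC4 likewise had heat stress replicate 1 far above the rest, at 224, 237 and 25.9 CPM. Without that library the log2 fold change of each of these 5 genes shrank to under 0.2 of its size. SREBF2, the regulator of sterol synthesis, and INCENP, the scaffold around Aurora kinase B, rested on L-Asp replicate 3. SREBF2 measured 6.24, 15.0 and 15.5 CPM after heat and 12.1, 13.2 and 45.04 CPM with L-Asp, and INCENP 25.2, 32.9 and 17.5 CPM after heat and 25.9, 28.4 and 68.0 CPM with L-Asp.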

How the data were processed

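Polyadenylated RNA of pig MII oocytes was amplified as full-length cDNA and sequenced in paired-end mode, per the labels' protocols. The deposited table holds whole-number counts and FPKM values per gene, per the file headers, and the counts were used as deposited. The deposited FPKM values served only to derive transcript lengths and to rank genes per length. Per the submitters' processing notes, edgeR, DESeq2, StringTie 2.1.6, HISAT2 2.2.1 and cutadapt 1.9 were used, in roles not stated. The sources used here do not give the build or the counting method. Groups came from the sample titles. The table's 6 further columns of per-sample values were not used.

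Genes were filtered with filterByExpr over 9 libraries, and TMM factors came from 7 libraries, with the 3 near-identical control libraries averaged to 1. The 6 heated libraries were fitted with edgeR 4.0.16 (glmQLFit with robust = TRUE, R 4.3.3), with 1 mean per group and 4 residual degrees of freedom, and p-values were adjusted over 15012 genes by Benjamini-Hochberg, with calls at 0.05. DESeq2 1.42.0 on the same libraries was an alternative. CPM means are over 3 libraries. The fit was tested on simulated data.

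Genes with a symbol were named by rule: the 20 of smallest p in each direction without overlap, 3 of smallest p per list, the 10 of highest FPKM, and 10 whose direction rests on 1 library. The text names fewer, and some items are not reported here. Of 40 gene lists, 36 had at least 3 genes of at least 10 CPM. Members and lists were chosen with earlier results of these data known. Counts are not independent molecules, and lists were described by counts and medians without a test.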

Additional observations from a re-analysis of the deposited data

How the results depend on the processing

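edgeR called 0 genes here, and 2 without a filter on low counts and 2 in the fit of 9 libraries: in both cases GSTA1 and ENSSSCG00000052153, an unnamed gene at 0 in all heat stress libraries and at 3.45, 3.92 and 9.19 CPM with L-Asp. DESeq2 called 87. With 1 library left out edgeR called 0 to 3 genes: 3 without heat stress replicate 3, 1 each without heat stress replicate 1, L-Asp replicate 1 and L-Asp replicate 2, and 0 otherwise. At an unadjusted p under 0.05 edgeR found 991 genes, 2055 in the fit of 9 libraries, and DESeq2 1541. Leaving out 1 library gave 445 (without L-Asp replicate 3) to 1577 (without heat stress replicate 3), and 653 without heat stress replicate 1. The 927 genes without overlap became 499 at a minimum mean of 50 CPM, by construction from 3290 genes, and 1217 to 2411 with 1 library left out. Other scalings gave 922 to 945, with 49.08% to 53.09% of them higher, against 53.61%. The labels do not say whether the replicate numbers pair the libraries, and 3 libraries in each group are too few to decide it. Deviations of same-numbered libraries correlated at 0.43, -0.14 and 0.11, and those of libraries with different numbers at -0.32 to 0.25. With the replicate number as a block edgeR called 0 genes, and 1170 had an unadjusted p under 0.05.

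For the 123 genes checked, 2211 values under alternatives were counted with 0 reversals, which the choice of genes largely fixed, since groups without overlap cannot turn when a library is left out. Not every gene named kept its sign. Without heat stress replicate 3 the log2 fold changes of COX1 and COX2 were 0.65 and 0.69, against -0.20 and -0.10. Without heat stress replicate 1 that of COX3 was -0.30, against 0.11. Over the 6678 genes 64.27% kept their direction. Of the 2211 values for the 123 genes, 2189 kept their side of the threshold and 22 newly passed it. Medians of 18 of 36 lists changed sign with some library left out, and those of 3 lists with another scaling. Those of the cytosolic ribosome, glutathione enzymes, heat shock proteins, and meiotic arrest and resumption did not. Every library held at least 41693395 counts, and counting error was not separated from the spread between libraries.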
